A study of Homo sapiens with 30 samples.

Results

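The data describe what the MS2 guide adds to RNA editing by MCP-ADAR2 fusions in HEK 293T, an immortalised human cell line of embryonic kidney origin. Of the 30 samples in the series, 9 belong here. The guide-bearing libraries are MCP-ADAR2 DD-NES + MS2 adRNA, MCP-ADAR2 DD (E488Q)-NES + MS2 adRNA, MCP-ADAR2 DD-NLS + MS2 adRNA and MCP-ADAR2 DD (E488Q)-NLS + MS2 adRNA. Each was set against the library of the same fusion without the guide (- MS2 adRNA), which gave 4 construct pairs, and a transfection of the MS2 adRNA alone was the ninth library. All 382978 listed sites were used. The libraries were assigned to pairs by their labels, while the gene lists and motifs were chosen with values of these data known. The 8 fusion libraries share the coat protein MCP and the ADAR2 deaminase domain (DD), delivered by lipofectamine transfection, and RNA from all of them was taken 60 h later. Each condition was 1 library, so the construct pairs are the only replication, and the p-values measure the spread between these pairs. The labels do not give the promoter or the amount of each construct in a cell.

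ADAR enzymes convert adenosine in double-stranded RNA to inosine, and sequencing reads inosine as G. In these fusions the natural RNA-binding domains of ADAR2 are replaced by MCP, which binds the MS2 hairpin, and the adRNA carries such hairpins beside an antisense stretch that pairs with the message to be edited. The export signal (NES) or the nuclear localisation signal (NLS) sets the compartment, and E488Q is a substitution known to make the deaminase domain more active. ADAR2 is known to prefer A or U over G before the edited base and G after it. That the guide is aimed at the 3′ UTR of RAB7A, a small GTPase of late endosomes, is general knowledge of the study and is not stated in the labels. The sequence of the guide is not in the sources used here.

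The sequences below show the RAB7A site, where 4 adenosines had mean gains of at least 2.69 percentage points with the guide, and windows of other messages with runs of the same letters. A gain below is the share with the guide minus the share without it, and the word implies no test. The other windows are examples from a small minority, since 16 of the 2639 sites with flanks whose shares with the guide all lay above those without held a run of 9 letters or more. They are transcript-strand sequences from GENCODE release 29 on GRCh38, written 5′ to 3′. In RAB7A (chr3:128814186-128814215, plus strand) the capitals mark these 4 adenosines, the last of which is the target. In the others the edited adenosine is base 15 of 29 and the capitals mark the run shared with the RAB7A window.
RAB7A: attgggAAAtccagctAgcggcagtattct
UCK2: gcgggggaaCAGCTAGCGGCAagtcttcc
GLA: gggattcgCCAGCTAGCtaattatgttca
SLC25A20: gagatgtcCCAGCTAGtggaatgtatttc
PRKAR1A: acctttATCCAGCTAGtgccaaataattg
EIF2S3: tgtagctcaTGGGAAATCCAcagtcgtca
SPTBN1: cattgaacTTGGGAAATCCctgttggcga
YWHAH: gttgatctaTGGGAAATCtaggcgaaagt
ENO1: gactgctATTGGGAAAgctggctacactg
CCDC86: gctgacagttgggAATCCAGCTtccccca

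The coordinates of these windows are chr1:165827910-165827938 (plus) for UCK2, chrX:101403806-101403834 (minus) for GLA and chr3:48859602-48859630 (minus) for SLC25A20. They are chr17:68531229-68531257 (plus) for PRKAR1A, chrX:24057434-24057462 (plus) for EIF2S3 and chr2:54655157-54655185 (plus) for SPTBN1. They are chr22:31957054-31957082 (plus) for YWHAH, chr1:8865438-8865466 (minus) for ENO1 and chr11:60850710-60850738 (plus) for CCDC86.

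A pair of other motifs recurred among sites that gained with the guide under both enzymes, ggcAg and aAgcagctgg, with the edited base in capitals. Of 33 such sites, described below, 13 held ggcAg and 5 held aAgcagctgg, while 5 held cagctAg, the letters at the RAB7A target. The windows are chr1:156787055-156787083 (plus) for PRCC, chr9:108972793-108972821 (minus) for CTNNAL1, chr19:34399901-34399929 (plus) for GPI, with its shared run in capitals, and chr20:33848492-33848520 (plus) for CHMP4B.
PRCC: gaattcaagatggcAgcaggttcaagtgg
CTNNAL1: gcgacacagctggcAgcagatctattaaa
GPI: agtggagcTGGGAAAgcagctggctaaga
CHMP4B: gaagaggtatgagaAgcagctggcgcaga

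Values are shares of reads with G at a site, in percent. Over all listed sites the mean share was 1.984% in MCP-ADAR2 DD-NES with the guide and 1.239% without it. In DD (E488Q)-NES it was 3.288% with and 2.915% without, and in DD (E488Q)-NLS 3.098% with and 2.556% without. DD-NLS was the exception, with 0.9383% with the guide and 0.9906% without. The mean difference was 0.4018 percentage points ± 0.3388 (SD, n = 4 pairs), higher with the guide in 3 of 4 pairs (exact two-sided sign-flip p = 0.25, where 0.125 is the smallest that 4 pairs allow). The controls without a transfected deaminase were far lower: 0.1476% for the guide alone, 0.1644% for GFP and 0.1461% to 0.1589% for 3 untransfected runs. Read depth is not in the tables, so no counting interval can be given and a share of 0% is only listed as such. The tables hold no expression levels, so the cell line could not be checked against its markers.

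A called site is one with an adjusted p under 0.01 in the authors' deposited table for that library and a share above the untransfected mean. DD-NES had 20241 called sites with the guide (5.29% of listed sites) and 9483 without (2.48%). DD (E488Q)-NES had 42713 with (11.2%) and 35283 without (9.21%). DD-NLS had 4739 with (1.24%) and 3759 without (0.982%), and DD (E488Q)-NLS had 38080 with (9.94%) and 28023 without (7.32%). Called sites were more numerous with the guide in 4 of 4 pairs, with a mean log2 ratio of 0.54 ± 0.38 (SD, n = 4), or 1.451-fold, and an exact p of 0.125. The number of calls may also depend on read depth, which is unknown. In DD-NLS calls were more numerous with the guide although the mean share was lower, 0.9383% against 0.9906%. The DD-NES pair carried the largest ratio, 2.134, and without it the mean log2 ratio was 0.35. Messages with a called site numbered 4299 with the guide and 2931 without in DD-NES, 5651 and 5236 in DD (E488Q)-NES, 1824 and 1447 in DD-NLS, and 5272 and 4698 in DD (E488Q)-NLS.

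**Figure D1:**
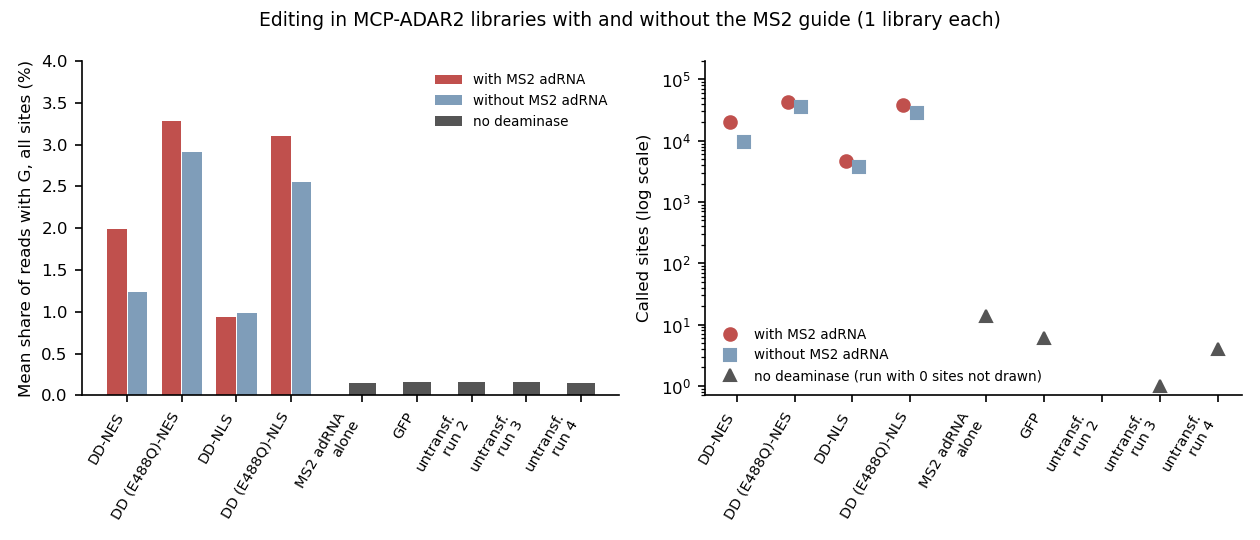
Mean share of reads with G over all listed sites (left, percent) and number of called sites (right, log scale) in each MCP-ADAR2 library with and without the MS2 adRNA and in the libraries without a transfected deaminase (marked no deaminase). Bars and points are single libraries. With the guide the mean share was higher in 3 of 4 pairs, and called sites were more numerous in all 4 pairs, by 1.211 to 2.134-fold.

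In percentage points, the shift was not spread alike over the levels of editing. A shift by an even ratio would also be larger in points at higher levels, and ratios by level were not compared. In DD-NES the mean difference was 0.171 points among sites with a mean level of up to 1% in the pair, 3.61 points at 5% to 10% and 9.01 points at 20% to 50%. DD-NLS had a negative difference at low levels, -0.109 points up to 1% and -0.287 points at 1% to 5%, and a positive one above, 2.77 points at 10% to 20% and 5.1 points at 20% to 50%. In both E488Q pairs the differences were smaller than in DD-NES, up to 2.55 points in DD (E488Q)-NES and 3.49 points in DD (E488Q)-NLS. In DD-NLS, 57.2% of sites were listed at 0% with the guide and 51.0% without. In the other pairs fewer sites were at 0% with the guide, 45.2% against 53.4% in DD-NES, 32.3% against 34.5% in DD (E488Q)-NES and 33.5% against 38.0% in DD (E488Q)-NLS. Across the 59813 sites called in at least 1 of the 8 libraries, the guide differences of different pairs were close to unrelated, with Pearson correlations of 0.014 to 0.18 over sites, which are not independent replicates.

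**Figure D2:**
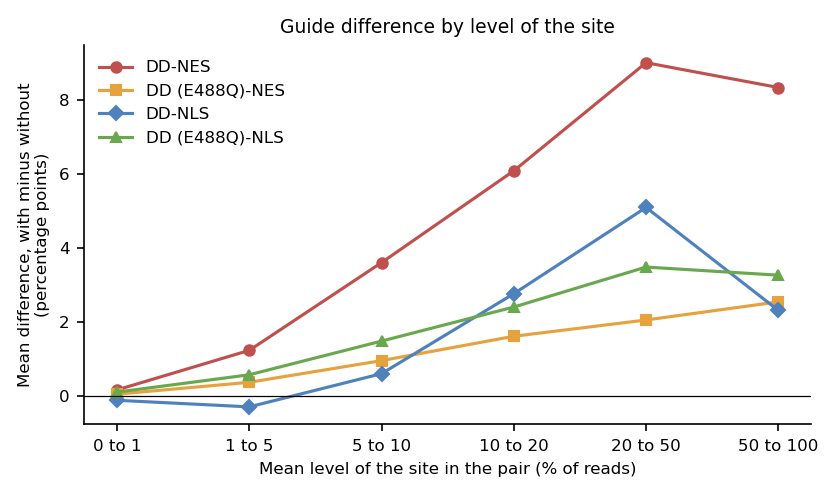
Mean difference in share, with minus without the guide (percentage points), against the mean level of the site in the pair (percent), 1 line per construct. The line of DD-NES lies above the others at every level, reaching 9.01 points, and the line of DD-NLS lies below 0 for sites up to 5%. The highest bin holds 58 to 379 sites.

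The RAB7A target site had a higher share with the guide in every construct. The site (chr3, position 128814202, plus strand, 3′ UTR, ENSG00000075785.12) sits in the triplet UAG. Its share was 41.6% in DD-NES, 27.8% in DD (E488Q)-NES, 7.00% in DD-NLS and 11.3% in DD (E488Q)-NLS with the guide, against 2.13%, 0.467%, 0.676% and 1.48% without, in the same order of constructs. The lowest value with the guide was above the highest without it. The guide alone gave 0.667%, GFP 0% and the untransfected runs 0.787% on average, so the gain was not seen without a transfected fusion. The mean gain was 20.76 points ± 15.52 (SD, n = 4 pairs), in 4 of 4 pairs. It is given as a description, since among the sites of RAB7A the one with the largest mean gain was taken as the target. No exact test is drawn from this gain. In the limma fit across all sites the adjusted p of the target was 0.761, between 0.692 and 0.882 over the alternative settings.

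The export signal went with larger gains at the target: 33.43 points on average in the pair of NES constructs and 8.079 points in the NLS ones. The E488Q constructs averaged 18.6 points and the wild-type ones 22.91 points, but the order differed by compartment: E488Q had the smaller gain among the NES constructs (27.37 points against 39.49) and the larger among the NLS ones (9.834 against 6.324). With 2 pairs on each side these differences carry no test. Among all listed sites the gain at the target ranked 9 in DD-NES, 119 in DD (E488Q)-NES, 4181 in DD-NLS and 6156 in DD (E488Q)-NLS. Ranked by the smallest gain of the 4 pairs it stood at 170.

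Adenosines upstream of the target in the RAB7A 3′ UTR gained as well. At 9 bases before it, in the run of 3 adenosines, the share was 11.5%, 9.18%, 0.478% and 3.40% with the guide (in the order above) and 0.658%, 0%, 0% and 0% without, higher in 4 of 4 pairs. At 10 bases before it, the values were 11.3%, 6.83%, 0% and 0.847% with and 0%, 0%, 0% and 0.446% without. At 8 bases before it, they were 3.90%, 6.25%, 0% and 1.28% with and 0.654%, 0%, 0% and 0% without. These 3 gains were seen mainly in the NES constructs, where the adenosine 9 bases upstream reached 27.7% of the target's share in DD-NES and 33.0% in DD (E488Q)-NES. It reached 30.1% in DD (E488Q)-NLS and 6.84% in DD-NLS, the construct with the lowest target editing. At 6 bases after the target the shares were 0.515% to 1.02% with the guide and 0% to 1.35% without, which overlap, and the mean gain was 0.1689 points ± 0.7438 (SD, n = 4 pairs), in 3 of 4 pairs. At 29 bases before and 34 bases after the target all 8 shares were listed at 0%.

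**Figure D3:**
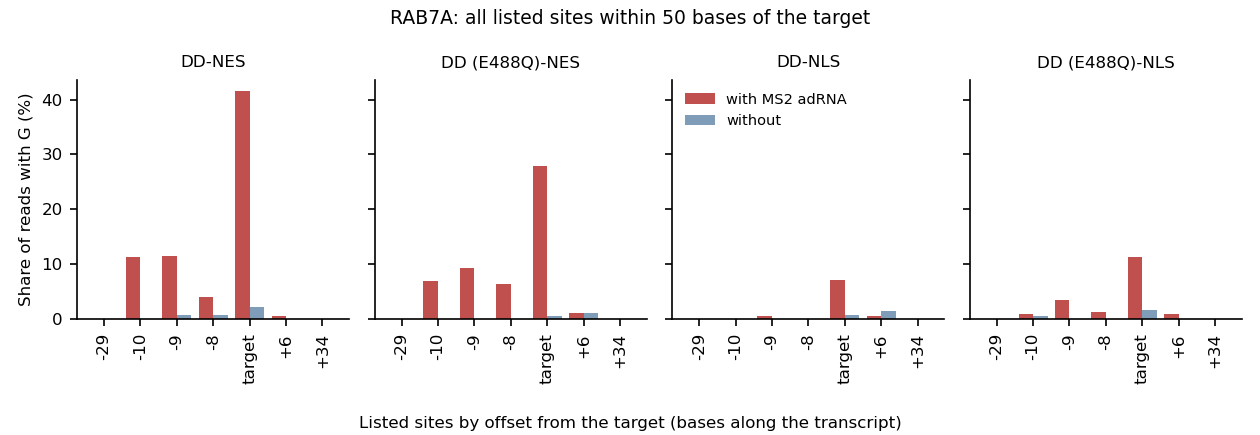
Share of reads with G (percent) at the 7 listed RAB7A sites within 50 bases of the target, by offset along the transcript, with the guide (left bar) and without (right bar) for each construct. The target and the adenosines 8, 9 and 10 bases before it had the larger gains, most of all in the NES constructs, and the other offsets stayed at or under 1.35%.

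The rest of the RAB7A message had a smaller difference. Over the 48 listed sites outside the window the mean share was 0.876% with the guide and 0.714% without, a difference of 0.162 points ± 0.137 (SD, n = 4 pairs, exact p = 0.25). The highest of these shares was 23.8% in DD (E488Q)-NES with the guide and 20.4% without. Over all 55 RAB7A sites the mean was 1.43% with and 0.663% without, a difference of 0.764 points ± 0.553 in 4 of 4 pairs, with a limma adjusted p of 0.666 over genes.

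Sites that share letters with the RAB7A window were then described. This grouping was chosen after values had been seen and carries no test. For each of the 379573 sites with known flanks other than the target, the longest run of letters identical to the 30-base RAB7A window and holding the edited adenosine was found, on the transcript strand alone. Of all these sites, 0.695% had every share with the guide above every share without it, and 0.244% had every share below. Among the 396 sites with a run of 9 or more letters, 16 (4.04%) lay above and 0 below. Higher in 4 of 4 pairs were 12.4% of these sites, against 6.04% of all, and lower in 4 of 4 were 0.505%, against 1.21% of all. Likeness over a wider stretch did not set the sites above apart: of the 20 bases that flank the edited one, 10 on each side, sites wholly above had a median of 5 identical to those at the target and a mean of 5.56, against 5 and 5.42 over all sites. Neighbouring adenosines of 1 message share a long run, so the sites are not independent. For runs of 3 to 8 letters the share of sites above lay between 0.623% and 1.19%. The mean difference at the long-run sites was 0.663 points ± 0.486 (SD, n = 4 pairs), close to the 0.585 points of sites with a run of 8.

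**Figure D4:**
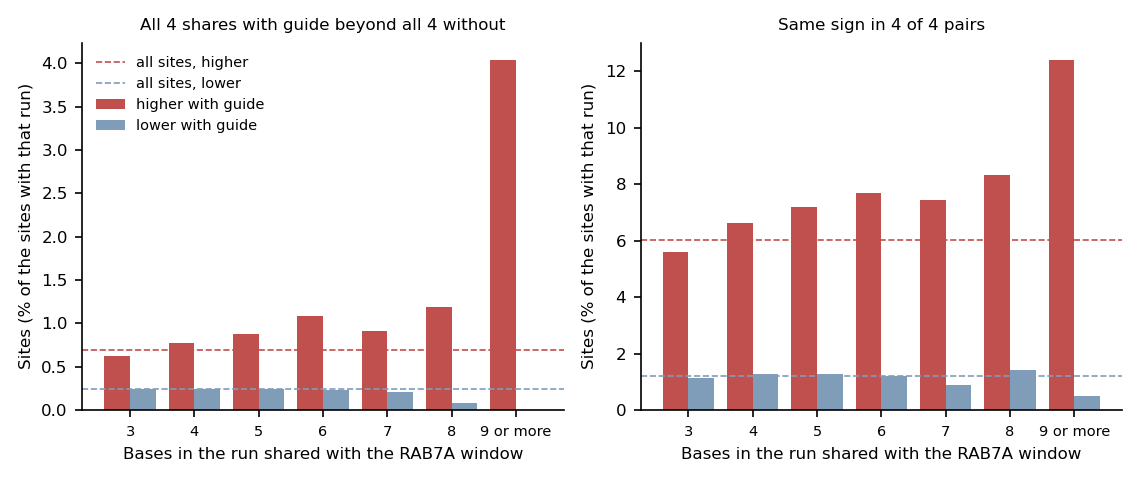
Percent of sites whose shares with the guide lay wholly above or below those without (left), or had the same sign in 4 of 4 pairs (right), by the length of the run shared with the RAB7A window. Dashed lines give the values over all sites with flanks. Sites with a run of 9 or more stand at 4.04% above and 0% below, against 0.695% and 0.244% of all sites.

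The runs differed in which RAB7A adenosine lay in the place of the edited base. With the edited base in the place of the target, 5 of 119 long-run sites lay above, and in the places 9, 10 and 8 bases before it 5 of 49, 2 of 17 and 2 of 93. In the place 6 bases after the target it was 2 of 42, and in the 3 remaining places 0 of 45, 0 of 28 and 0 of 3.

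UCK2 shared the longest run with the target in place, 12 letters. The site (chr1, position 165827924) recodes S31G in a uridine-cytidine kinase of the pyrimidine salvage pathway. Its share was 3.63%, 9.26%, 1.95% and 4.66% with the guide, against 1.06%, 1.64%, 0% and 0.870% without, with no overlap between the groups. GLA, the lysosomal alpha-galactosidase, was edited at a silent position, L161L (chrX, position 101403820). Its share was 4.02%, 14.5%, 3.55% and 7.56% with the guide and 0.356%, 0%, 0.344% and 0.637% without. In the GLA site the DD (E488Q)-NES library was the highest, while at RAB7A DD-NES was.

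SLC25A20, the mitochondrial carnitine and acylcarnitine carrier, held a run of 8 letters with S183G in the place of the target (chr3, position 48859616). Its share was 9.09%, 30.2%, 5.08% and 11.1% with the guide and was listed at 0% in all 4 libraries without. PRKAR1A, a regulatory subunit of protein kinase A, held a run of 10 letters in its 3′ UTR (chr17, position 68531243). It reached 0.704%, 1.52%, 0.641% and 0.719% with the guide and 0% in all 4 without, a mean gain of 0.895 points beside 7.08 points at GLA, whose run was 9. SCD, the stearoyl-CoA desaturase of fatty acid synthesis, held a run of 10 letters in its 5′ UTR (chr10, position 100347380). It reached 0.316% to 0.775% with the guide and 0% to 0.216% without.

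EIF2S3, the gamma subunit of the initiation factor that brings the initiator tRNA to the ribosome, held 11 letters of the run that covers the upstream adenosines. All 3 bases of its lysine 54 codon gained, as the 3 upstream adenosines of RAB7A had. The middle base, K54R (chrX, position 24057448), reached 7.39%, 8.25%, 1.90% and 2.53% with the guide and 0.213%, 0%, 0% and 0.192% without. The base before it, K54E, reached 1.75%, 2.80%, 0.769% and 0.583% with and 0.213%, 0.233%, 0% and 0% without. The silent last base, K54K, stood between 0.595% and 0.887% with the guide and between 0% and 0.430% without. The middle base was the highest of the 3 in each guide library, and the NES libraries stood above the NLS ones at it.

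SPTBN1, a spectrin of the membrane skeleton, held the same 11 letters less their last and with a T before them, at K1977R (chr2, position 54655171). Its share was 11.0%, 7.92%, 2.56% and 3.19% with the guide and 0%, 0%, 0% and 1.65% without. YWHAH, a 14-3-3 adaptor protein, was edited in its 3′ UTR (chr22, position 31957068) at 4.81%, 4.41%, 1.06% and 1.85% with the guide and at 0% in all 4 libraries without. ENO1, a glycolytic enolase, had K233R (chr1, position 8865452) at 1.65%, 2.03%, 0.591% and 0.780% with and 0.0689%, 0.0346%, 0.0591% and 0.0293% without. Both wild-type and E488Q NES libraries were the highest at all 3 sites. ROMO1, a small mitochondrial membrane protein, shared the ENO1 letters at K58R and reached 0.387% to 1.26% with the guide and 0% to 0.135% without.

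CCDC86, which encodes a nucleolar protein, held 9 letters that join the upstream run to the target (3′ UTR, chr11, position 60850724). Its share was 6.27%, 7.76%, 2.98% and 3.54% with the guide and 0% in all 4 libraries without. EIF4B, a cofactor of the translation helicase, had E586E at 0.673% to 3.74% with and 0% to 0.330% without, in a stretch where exons of 2 genes overlap. The other long-run sites above all values without the guide were in FBXO21 (2.22% to 3.77% with and 0% to 1.56% without), PRRC2B (1.14% to 2.13% with and 0% to 1.13% without) and DEK (0.824% to 1.76% with and 0% to 0.278% without). In each of these 3 the gap between the groups was under 1 point.

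Sequence in the place of the target was also described by motif, over sites with that motif in register. UAG, written tAg, was at 8.6% of listed sites with flanks, and 0.692% of its 32649 sites lay wholly above, next to 0.695% of all sites. The longer gctAg was at 0.876% of sites, of which 0.902% lay above. cagctAg was at 0.0975% of sites, 370 in all, and 7 of them (1.89%) lay above and 0 below. cagctAgc was at 0.0287%, with 4 of 109 sites (3.67%) above. The mean difference over cagctAgc sites was 1.35 points ± 0.915 (SD, n = 4 pairs), against 0.401 points over all sites. In the place 9 bases before the target, ggaAatc was at 0.0237% of sites, and 6 of its 90 (6.67%) lay above and 0 below. A match of letters is a description, and most sites with these letters did not separate the groups.

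The matching fusions of the ADAR1 deaminase domain, with E1008Q as the more active form, share no library with those of ADAR2, and their 4 pairs were read at the same sites. Of the 2661 sites (0.695%) wholly above with the guide in ADAR2, 33 (1.24%) were wholly above in ADAR1 too, where 696 of all listed sites (0.182%) were. These 33 are 4.74% of the 696. Of the 936 sites (0.244%) wholly below in ADAR2, 0 were wholly below in ADAR1, where 471 sites (0.123%) were, and 1 was wholly above. Of the 33 sites, 28 were coding, where 64.9% of listed sites were. By letters 5 held cagctAg (RAB7A, SLC25A20, GLA, UCK2 and PRKAR1A), 13 held ggcAg, 5 held aAgcagctgg, 1 held gaAatcc and 9 held none of these. The motifs were read off these sites, so the counts describe them and test nothing.

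PRCC, a splicing-related nuclear protein found in renal carcinoma fusions, had the highest mean shares of the ggcAg group in both enzymes, at A326A (chr1, position 156787069), though ZNF740 stood above it in both ADAR2 NLS libraries with the guide. In the ADAR2 fusions its share was 10.9%, 23.7%, 3.12% and 9.31% with the guide and 0%, 0.452%, 0% and 0.813% without. In the ADAR1 fusions it was 43.0% in DD-NES, 19.0% in DD-NLS, 59.9% in DD (E1008Q)-NES and 40.0% in DD (E1008Q)-NLS with, and 4.76%, 1.57%, 2.92% and 1.67% without. In PRCC the ADAR1 gain, 37.8 points ± 16.1, was larger than that at RAB7A, 29.3 ± 11.1, while the ADAR2 gain, 11.4 ± 8.51, was smaller than the 20.8 ± 15.5 at RAB7A (SD, n = 4 pairs each).

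CTNNAL1, a relative of alpha-catenin, was edited at the silent A405A (chr9, position 108972807). It had 5.88%, 21.0%, 1.23% and 5.71% with the guide in ADAR2 and 0%, 0%, 0% and 1.15% without. Its ADAR1 shares were 18.3% to 37.7% with and 0% to 0.769% without. ZNF740, a zinc finger protein, was edited in its 3′ UTR (chr12, position 53187922) at 8.89%, 14.0%, 4.35% and 9.68% with the guide in ADAR2 and at 0% in all 4 without. NUP153, a nucleoporin, had S1430G at 1.14% to 11.0% with and 0% to 1.13% without. TRA2A, a splicing regulator, had S111G at 1.39% to 9.93% with and 0% to 0.738% without. TIMM17A, a part of the mitochondrial import channel, had A104A at 1.29% to 7.85% with and 0% to 0.206% without. In all 6 of these genes the DD (E488Q)-NES library was the highest of the ADAR2 libraries.

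The letters ggcAg alone were common. They were at 2.24% of sites, of which 1.14% lay wholly above in ADAR2. ctggcAgca, at 109 sites (0.0287%), had 5 (4.59%) wholly above in ADAR2 and 34 (31.2%) in ADAR1, where 0.181% of all sites with flanks were. Its mean guide difference was 0.909 points ± 1.11 in ADAR2, negative in DD-NLS (-0.333 points), and 6.66 points in ADAR1. The letters ctggcAgca were read off the CTNNAL1 site, which counts among the 5 and the 34. The RAB7A window itself holds cggcagt 6 bases after the target, where the ADAR2 shares with and without the guide overlapped.

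The aAgcagctgg group held recoding sites and a silent one. GPI, the glycolytic glucose-6-phosphate isomerase, had K519R (chr19, position 34399915) at 2.53%, 4.50%, 1.10% and 1.65% with the guide and 0%, 0%, 0% and 0.358% without. The neighbouring base, K519E, stood at 0.729% to 2.44% with and 0% to 0.329% without. CHMP4B, a subunit of the ESCRT-III membrane-cutting complex, had K77R at 0.985% to 4.48% with and 0% to 0.249% without. PSMD1, a subunit of the regulatory particle of the proteasome, had the silent E510E at 1.33% to 2.67% with and 0% to 0.526% without. aAgcagctgg was at 61 listed sites (0.0161%), of which 6 (9.84%) lay wholly above in ADAR2 and 0 below. These letters were read off the GPI site, which is among the 6. The mean guide difference over the 61 sites was 0.258 points ± 0.415 (SD, n = 4 pairs), against 0.401 over all sites. It was negative in DD-NLS (-0.274 points). Of 820 sites with the shorter aAgcagc, 1.34% lay wholly above, against 0.695% of all. Higher in 4 of 4 pairs were 5.61% of them, against 6.04% of all.

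Of the 9 sites outside these groups, EIF2S3 K54K and GPI K519E neighbour a described site. XRCC1, a scaffold of DNA strand-break repair, had K438R at 0.980% to 1.72% with the guide and 0% in all 4 libraries without. METTL22, a protein methyltransferase, had K270R at 3.70% to 13.2% with and 0% in all 4 without in ADAR2, while in ADAR1 it was already edited without the guide, at 13.3% to 25.0%. ZNF24, a zinc finger protein, had Q204R at 8.89% to 13.4% with and 3.86% to 7.25% without.

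**Figure D5:**
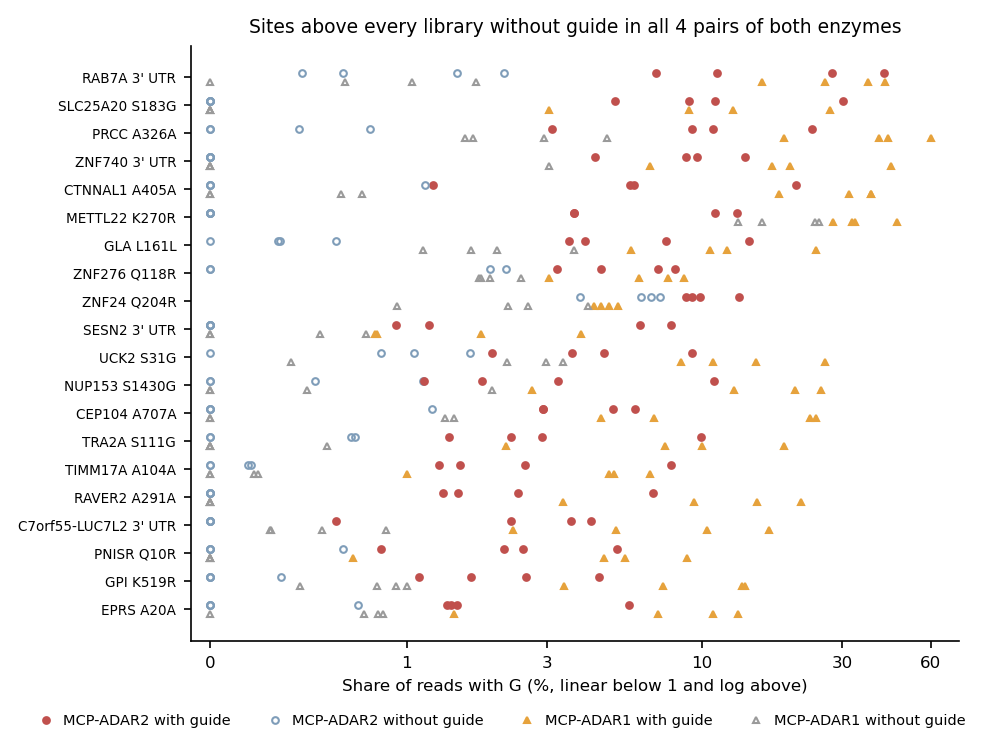
Share of reads with G (percent, linear below 1 and logarithmic above) at the 20 sites with the largest ADAR2 gain among the 33 where every library with the guide stood above every library without it in both enzymes. Each point is 1 library: filled for the guide, open for none, circles for ADAR2 and triangles for ADAR1. RAB7A leads in the ADAR2 fusions, and most other sites are higher in ADAR1 with the guide.

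Calls in the authors' deposited table gave a stricter list. Only 17 sites (0.00444%) were called in all 4 libraries with the guide and in 0 of 4 without, and 0 sites the other way round (0%). RAB7A and ENO1 K233R were among them. Most of the others had editing without the guide that stayed under the call. NUMA1, a spindle protein, had R1899G at 31.1%, 9.18%, 14.7% and 24.7% with the guide and 10.1%, 3.33%, 6.67% and 6.67% without, which overlap. GNA12, a G protein alpha subunit, had K306R at 21.1% to 34.8% with and 10.5% to 18.2% without. DPF2, a chromatin remodelling subunit, had a 3′ UTR site at 8.78% to 17.4% with and 4.85% to 8.13% without. SMG5, of nonsense-mediated decay, had a 3′ UTR site at 5.83% to 12.4% with and 2.82% to 4.59% without. EIF3A, a scaffold of translation initiation, had E503E at 4.02% to 7.52% with and 0.590% to 2.36% without.

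EEF1A1, the elongation factor that carries aminoacyl-tRNA, had E336E at 0.444% to 1.63% with the guide and 0.143% to 0.214% without. Its sequence holds aAgcagctgg as well. The remaining 9 were SESN2, DCTN1 K800R, TSPYL1 T80A, CRTAP S102G, PTBP1 K92R, PRRC2A K49R, PSMD3 K269R, SLC3A2 K148R and RPL32 K76R, with means of 1.01% to 6.16% with the guide and 0.620% to 3.59% without. Of the 17 sites, 4 (23.5%) were higher in 4 of 4 ADAR1 pairs, against 5.07% of all sites. NUMA1 and GNA12 were lower on average with the guide in ADAR1, by 0.585 and 2.04 points.

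Across all sites, 23053 (6.02%) were higher with the guide in 4 of 4 pairs and 4635 (1.21%) lower. Limma called 0 sites by guide (0% of 382978) at an adjusted p under 0.05. At an unadjusted p under 0.05 there were 14876 higher and 4541 lower. With every library centred on its own mean the unadjusted split became 9114 higher and 10296 lower, a balance that the centring itself moves towards even. The guide effect differed between NLS and NES at 0 sites (0%), between E488Q and wild type at 0 (0%) and between ADAR2 and ADAR1 at 0 (0%), with 17538, 19273 and 21235 at an unadjusted p under 0.05. With libraries centred, limma called 889 sites for NLS against NES, 1024 for E488Q against wild type and 0 for ADAR2 against ADAR1. The smallest p for localisation was at a STAT5B 3′ UTR site, 58.3% with and 13.6% without in DD (E488Q)-NLS (limma adjusted p = 0.84).

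The sites with the largest mean gain among those higher in 4 of 4 pairs were, apart from RAB7A, mostly sites that the fusions edited without the guide as well. MAN2B2, a lysosomal mannosidase, had the largest, at Q406R (chr4, position 6597272). It had 66.7%, 45.0%, 54.8% and 70.0% with the guide and 42.9%, 25.9%, 28.6% and 40.0% without, a mean difference of 24.8 points ± 4.58 (SD, n = 4). The groups did not overlap, and in ADAR1 the mean difference at this site was -0.598 points. UNC5B, a netrin receptor, had Q636R at 61.0%, 63.6%, 40.0% and 51.5% with and 34.6%, 52.8%, 9.52% and 33.3% without. ITGA5, the alpha subunit of the fibronectin receptor, had E895E at 56.7%, 48.8%, 20.8% and 42.9% with and 26.7%, 38.5%, 6.90% and 11.8% without. In these receptors the groups overlapped, and at the ITGA5 site the ADAR1 difference was -11.2 points.

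FLNC, a filamin of muscle, had N721S at 35.6% to 67.9% with the guide and 8.00% to 40.5% without. FOXO4, a forkhead factor downstream of insulin signalling, had T89T at 33.3% to 60.0% with and 13.6% to 28.6% without. FAM219A had a 3′ UTR site at 26.1% to 63.3% with and 8.33% to 25.0% without, called in 2 libraries with the guide and 0 without. RAB11FIP1, an effector of recycling endosome Rabs, had R1261G at 19.2% to 47.1% with and 5.88% to 30.4% without. A position in a noncoding exon of RPS4X, a ribosomal protein gene, was among the 10 largest gains, at 22.0 points, but reached 19.0% with the guide alone and was called in no fusion library. None of the 10 passed limma (adjusted p = 0.761 for each).

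The largest negative differences in 4 of 4 pairs were smaller in size. INF2, a formin, had K614R at 0%, 0%, 11.1% and 0% with the guide and 2.70%, 31.6%, 20.0% and 30.8% without. PNPLA6, the neuropathy target esterase, had Q218R at 0%, 0%, 0% and 8.00% with and 27.3%, 6.90%, 15.8% and 28.6% without. SETD1B, a histone H3 lysine methyltransferase, had E1077E at 7.14% to 26.5% with and 12.9% to 58.6% without. Others were in TBC1D22B, ZNF580, ASCC3, ZNF367, TBC1D20 and CIP2A, with mean differences of -12.3 to -15.8 points. None passed limma (adjusted p = 0.761 for each), and for each of the 10 at most 2 libraries with the guide called the site. The ZNF580 site, in the 5′ UTR, stood at 37.2% in the untransfected runs, 20.4% in GFP and 25.0% with the guide alone. It was called in no MCP-ADAR2 fusion library.

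Single pairs gave larger differences, which varied in size and, at most of the sites named here, in sign between pairs. In DD-NES, a 3′ UTR site of HS1BP3 stood at 56.5% with the guide and 9.09% without, and PACS2 Y198C at 11.8% with and 44.0% without. In DD (E488Q)-NES, PARP16 S210G, in an ADP-ribosyltransferase of the endoplasmic reticulum, stood at 42.9% with and 0% without, and GPC4 N156S at 14.3% with and 56.2% without. In DD-NLS, a 3′ UTR site of LEPROT stood at 57.1% with and 18.8% without, and LAMB2 L1541L, in a laminin chain, at 15.4% with and 43.8% without. In DD (E488Q)-NLS, KLHL36 K259R stood at 56.2% with and 0% without, and SPON1 Y778C at 13.6% with and 52.9% without. All of these sites except that of PARP16 had the opposite sign in at least 1 other pair. LAMB2 stood at 43.8% with and 14.6% without in DD-NES, and GPC4 at 35.7% with and 7.41% without in DD (E488Q)-NLS.

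Averaged over the listed sites of a message, 1667 of 7714 genes with at least 5 sites (21.6%) were higher with the guide in 4 of 4 pairs and 65 (0.843%) lower. By pair, 89.3% of genes were higher in DD-NES, 72.2% in DD (E488Q)-NES, 39.2% in DD-NLS and 80.0% in DD (E488Q)-NLS. Limma called 0 genes (0%), with 503 higher and 47 lower at an unadjusted p under 0.05. With libraries centred the split was 235 higher and 308 lower. PSMA8, a testis-type proteasome subunit, led by size with 33.0% with and 26.7% without (6.28 points ± 4.85, 5 sites). SMPD1, the lysosomal acid sphingomyelinase, had 13.4% with and 7.61% without (5.80 ± 3.77, 5 sites). ZSCAN29, a zinc finger protein, had 8.99% with and 4.80% without (4.19 ± 1.66, 11 sites). On the other side TNFRSF10D, a decoy receptor for the death ligand TRAIL, had 2.08% with and 4.85% without (-2.77 ± 1.51, 5 sites). TBC1D25, a Rab GTPase activator, had 0.596% with and 1.84% without, a difference of -1.25 points ± 0.199 in 4 of 4 pairs.

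The listed gene groups were described by counts beside the 1667 higher and 65 lower of all 7714 genes, whose median difference was 0.328 points. Of 28 Rab GTPases other than RAB7A, 6 were higher in 4 of 4 pairs and 0 lower, with a median of 0.307 points. RAB2B, of the Golgi, had 6.67% with and 4.96% without (1.71 points ± 1.64). Of 52 lysosomal and late endosomal genes, 16 were higher and 1 lower, with a median of 0.594 points. Among them MCOLN1, a lysosomal cation channel, had 6.07% with and 4.58% without (1.48 points ± 1.84, higher in 3 of 4 pairs). CCZ1, part of the RAB7A-activating complex, had 0.0877% with and 1.21% without (-1.12 ± 0.861, 5 sites, limma adjusted p = 0.666 over genes). Of 76 cytosolic ribosomal proteins, 17 were higher and 0 lower (median 0.269 points), and RPL23 had 2.21% with and 1.45% without. Of 16 glycolytic enzymes 3 were higher and 0 lower (median 0.154 points), and of 12 actin, tubulin and vimentin genes 1 was higher and 0 lower (median 0.158 points).

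Of 13 natural recoding substrates of ADARs, 4 were higher and 0 lower (median 0.552 points). FLNA, a filamin whose Q-to-R recoding is a known ADAR2 event, had 4.59% with the guide and 3.53% without over 426 sites (1.06 points ± 0.586). Of 19 double-stranded RNA binding protein genes, 3 were higher and 0 lower (median 0.333 points). Limma called 0 genes in each list. Counted by site instead, among sites above 0% in at least 1 of the 8 libraries, 15.4% of ribosomal, 12.7% of cytoskeletal, 11.4% of glycolytic and 11.3% of recoding substrate sites were higher in 4 of 4 pairs. The share was 8.16% for lysosomal, 5.90% for Rab and 5.33% for double-stranded RNA binding genes, against 6.43% of all. Lower in 4 of 4 pairs were 3.04% of ribosomal, 2.96% of glycolytic and 2.22% of cytoskeletal sites, against 1.29% of all. For the other lists it was 1.4% for lysosomal, 0.712% for Rab, 0.58% for double-stranded RNA binding and 0.532% for recoding substrate sites. The mean difference was 0.321 points for ribosomal, 0.195 for cytoskeletal, 0.194 for glycolytic and 0.67 for recoding substrate sites, against 0.429 over all. The order of the lists thus differed between medians over genes and shares of sites, and no difference between a list and all genes was tested.

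The kinds of site among the called sites differed little. Sites with G before the edited base made up 7.28% of called sites with the guide and 6.75% without, higher in 4 of 4 pairs by 0.529 points ± 0.484 (SD, exact p = 0.125, adjusted over 7 classes 0.292). UAG sites, the triplet of the target, made up 12.1% with and 12.7% without, lower in 4 of 4 pairs with a mean difference of -0.575 points ± 0.491 (SD, exact p = 0.125, adjusted 0.292). Coding sequence held 73.1% with and 73.4% without, and 3′ UTRs 21.7% with and 21.2% without (adjusted exact p = 0.438 for both). Recoding sites were 54.3% with and 54.4% without.

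The guide alone had 14 called sites, against 6 in GFP and 0, 1 and 4 in the untransfected runs. The highest shares were in ADARB1, the gene of ADAR2 itself. At T375A (chr21, position 45182629) the guide alone gave 92.5%, against 0% in GFP and 26.5% in the untransfected runs, and the ADARB1 site at position 45176646 was called as well. No triplet or codon change is listed for position 45176646, so its base was not shown to be an adenosine. Both ADARB1 sites were listed at 0% in all 8 MCP-ADAR2 libraries, with and without the guide. These 8 libraries also carry a transfected ADAR2 deaminase domain. The shares do not tell its reads from those of the cell's own ADARB1, so they cannot be compared with the guide-alone values. MCM3, a replicative helicase subunit, stood at 6.24% with the guide alone, against 0.937% in GFP and 0.655% in the untransfected runs. Another site of this library, in the 5′ UTR of MARCKSL1, stood at 32.8% with the guide alone and 32.8% in GFP. In the fusions the MCM3 site averaged 0.703% with and 0.496% without.

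Set against the 4 ADAR1 pairs, the guide effects of the ADAR2 pairs on mean share and called sites were not shown to differ beyond the spread between constructs. The mean share difference was 0.4018 points ± 0.3388 in ADAR2 and 0.02364 ± 0.9062 in ADAR1 (exact permutation p = 0.4857). The ADAR1 mean averages opposite signs: -0.417 points in DD-NES and -0.9951 in DD (E1008Q)-NES, but 0.4645 in DD-NLS and 1.042 in DD (E1008Q)-NLS. In ADAR2 only DD-NLS was negative (-0.05224 points). The log2 ratio of called sites was 0.54 ± 0.38 in ADAR2 and 0.09 ± 0.35 in ADAR1 (exact p = 0.2). The gain at the RAB7A target was 20.76 points ± 15.52 in ADAR2 and 29.3 ± 11.11 in ADAR1. The site was chosen by its gain in the ADAR2 pairs, so no test is drawn from these values. For mean share and called sites, the exact p adjusted over the 4 quantities compared, the target gain among them, was 0.4857 (SD, n = 4 pairs each).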

How the data were processed

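The members, gene lists and motifs were chosen with earlier results of these data known. Per the labels' protocols, libraries were made from 300 ng of RNA with poly(A) selection; the kit is not stated to keep strand. STAR 2.6.0c, SAMtools, bcl2fastq 2.18.0.12 and the build GRCh38.p12 are named in the submitters' processing notes. The authors deposited 2 tables, per the file headers with 1 line per site: the fraction of reads with the edited base, and the deposited adjusted p-value, whose test the header does not name. Sites are listed because some library passed, so they are selected. Depth per sample is unknown. A column without a sample name in the share table (1 in all) was not used, which left 3 untransfected runs.

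Sites were annotated with GENCODE release 29 (99.86% of 352930 sites in exons of 1 gene are adenosine on the transcript strand). Limma 3.58.1 (R 4.3.3) was run on arcsine square roots of the shares of 8 libraries with construct as a block, an intensity trend and Benjamini-Hochberg adjustment over all sites. A log2 alternative used an offset of 0.01. On simulated data, planted guide effects of 0.4 in arcsine units were recovered at 2% of 50 sites, of 0.8 at 24%, of 1.2 at 46% and of 1.5 at 60%, with 1 false call among 382978 sites. Named sites are the target window, the 10 largest rises and falls with 1 sign in 4 of 4 pairs (sites and genes), the 3 largest each way per pair, the smallest p for each difference of guide effects, the guide-alone sites, and, chosen after values were seen, the both-enzyme, long-run and called-in-4 sites. Python 3.11.15, pandas 2.3.3 and numpy 2.4.6 were used. A few named sites and genes are not reported here.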

Additional observations from a re-analysis of the deposited data

How the results depend on the processing

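The mean share difference stayed positive over called sites alone (1.504 points), sites of at least 5% in 1 library (1.171), sites outside overlaps (0.3991) and medians (0.1852), and ranged from 0.2875 to 0.5532 when each pair was left out. The log2 ratio of called sites ranged from 0.3508 (without DD-NES) to 0.6235, and the RAB7A gain from 14.51 (without DD-NES) to 25.57 points. Over all 8 MCP pairs of both enzymes the RAB7A gain was 25.03 points; its site was chosen on 4 of these pairs, so no test is drawn from them. Limma called 0 sites and 0 genes by guide under every setting run, including leave-one-out fits (0 to 0). These were the share itself, log2, no construct block, no trend, a level filter, centring and all 16 MCP libraries, and 1 guide effect over 8 pairs, which was added after seeing the data. With libraries centred, 889 sites differed in guide effect between NLS and NES and 1024 between E488Q and wild type, against 0 without centring; the cause was not tested. Among called sites of at least 10% the class differences reversed for 3′ UTRs (-0.0527 points) and coding sequence (0.177 points), neither of which passed the test. No paired analysis by replicate number was possible because each condition has 1 library; construct was the block. Unknown depth limits every value near 0%.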
